A study of Mus musculus with 6 samples.

Results

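The huntingtin gene Htt, the binding partner gene Hap1 and 4 further genes of polyglutamine diseases or their relatives, Atxn1, Atxn2, Atn1 and Tbp, were measured in mouse striatum. The members were every probe set that the platform annotation gives to exactly 1 gene symbol among Htt, Hap1, Hip1, Atxn1, Atxn2, Atn1 and Tbp. This rule found 8 probe sets for 6 of the 7 genes, of 12422 probe sets and 8251 genes in all; Hip1 had no probe set under the rule and was not measured. Striatal RNA came from 3 Hdh4/Q80 mice (replicates 7, 8 and 9) and 3 wild-type littermates (replicates 4, 5 and 6), 1 Affymetrix array per mouse, and all 6 were 12-month-old C57BL/6 females per the labels. In Hdh4/Q80 mice the CAG repeat of the endogenous huntingtin gene, formerly called Hdh, is lengthened. The labels call them transgenic and state neither zygosity nor how many lines were used. The comparison asks whether the transcripts of huntingtin, of its partners and of related genes differ in level between mutants and littermates.

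Huntingtin is a very large scaffold protein that links vesicles to the microtubule motors and takes part in transcription and autophagy. In Huntington's disease a CAG repeat in the first exon of its gene is too long, and the protein with the lengthened glutamine tract harms spiny projection neurons of the striatum most. Other genes with coding CAG repeats cause ataxias and related disorders in the same dominant way: ATXN1 and ATXN2 encode ataxins, ATN1 encodes atrophin 1, the protein of dentatorubral-pallidoluysian atrophy, and TBP encodes the TATA-binding protein. HAP1 and HIP1 were found as proteins that bind huntingtin.

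Values are log2 expression after robust multi-array average (RMA) normalization, in which a difference of 1 is a 2-fold change. Medians of the 6 arrays ran from 7.10 to 7.13, and across probe sets any pair of arrays had a correlation of 0.990 to 0.998. Hdh4/Q80 replicate 8 stood apart, with a mean correlation of 0.992 with the other arrays, against 0.995 to 0.997 for the other 5. Of 19 listed markers of striatal projection neurons, each taken by its brightest probe set as were all marker genes below, 10 were measured. The brightest was Penk, the enkephalin precursor, at 13.04 in Hdh4/Q80 and 13.02 in wild-type mice. The dimmest was Rgs9, at 5.68 in Hdh4/Q80 and 5.58 in wild-type mice, below every array's lower quartile (5.79 to 5.86). No other tissue was on the arrays for comparison. The log2 of the summed linear levels of the 10 markers was 14.10 to 14.21 in Hdh4/Q80 and 14.06 to 14.32 in wild-type mice. The same sum over 8 of 8 microglial markers was 11.64 to 11.93 in Hdh4/Q80 mice and 12.00 to 12.10 in wild type, and the groups did not overlap. Over 7 of 8 oligodendrocyte markers it was 13.48 to 13.58 in Hdh4/Q80 mice and 13.61 to 13.69 in wild type, again without overlap. Among all single probe sets, 11.7% had groups that did not overlap, and no such share was worked out for sums over several genes. The microglial genes were below 0 in 8 of 8 (Hdh4/Q80 minus wild type, median -0.16). The oligodendrocyte genes were mixed, with 5 of 7 below 0 and a median of -0.03. Mobp, on the brightest of its 4 probe sets, differed by -0.31, and Mal by -0.23. Mbp, on the brighter of its 2 probe sets (0.0077), and Cnp (0.12) were above 0. Cnp was dim, at 5.74 in Hdh4/Q80 and 5.62 in wild-type mice, below every array's lower quartile (5.79 to 5.86). For 4 of 8 choroid plexus markers the sum was 9.53 to 11.56 in Hdh4/Q80 and 9.46 to 10.71 in wild-type mice. For 6 of 8 markers of cortical projection neurons it was 11.26 to 11.65 in Hdh4/Q80 and 11.52 to 11.79 in wild-type mice, and for 7 of 8 astrocyte markers 12.24 to 12.45 in Hdh4/Q80 and 12.38 to 12.41 in wild-type mice. In whole striatum, fewer cells of a type and less RNA per cell cannot be told apart, and the part these cell types play in the values below was not tested.

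None of the members differed between mutant and littermate striatum by the test. With limma's moderated test and Benjamini-Hochberg adjustment over all 12422 probe sets, 0 of the 8 member probe sets had an adjusted p under 0.05, where the share over all probe sets was 0%. The unadjusted p was under 0.05 for 0 of 8 members too, against 5.1% of all probe sets (634). The smallest unadjusted p among the members was 0.155, for the dimmer Htt probe set. In 1 of 8 members, Hap1, the 3 mutants lay wholly on 1 side of the 3 wild types, against 11.7% of all probe sets. Of the 8 differences (Hdh4/Q80 minus wild type), 6 were below 0 and 2 above, with a median of -0.02 and a median size of 0.05; over all probe sets the median was -0.0027 and the median size 0.07. The 95% interval of all 8 members excluded a 1.5-fold change in either direction, as it did for 98.6% of all probe sets. Because RMA shrinks fold changes, the limits hold on the array scale.

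**Figure D1:**
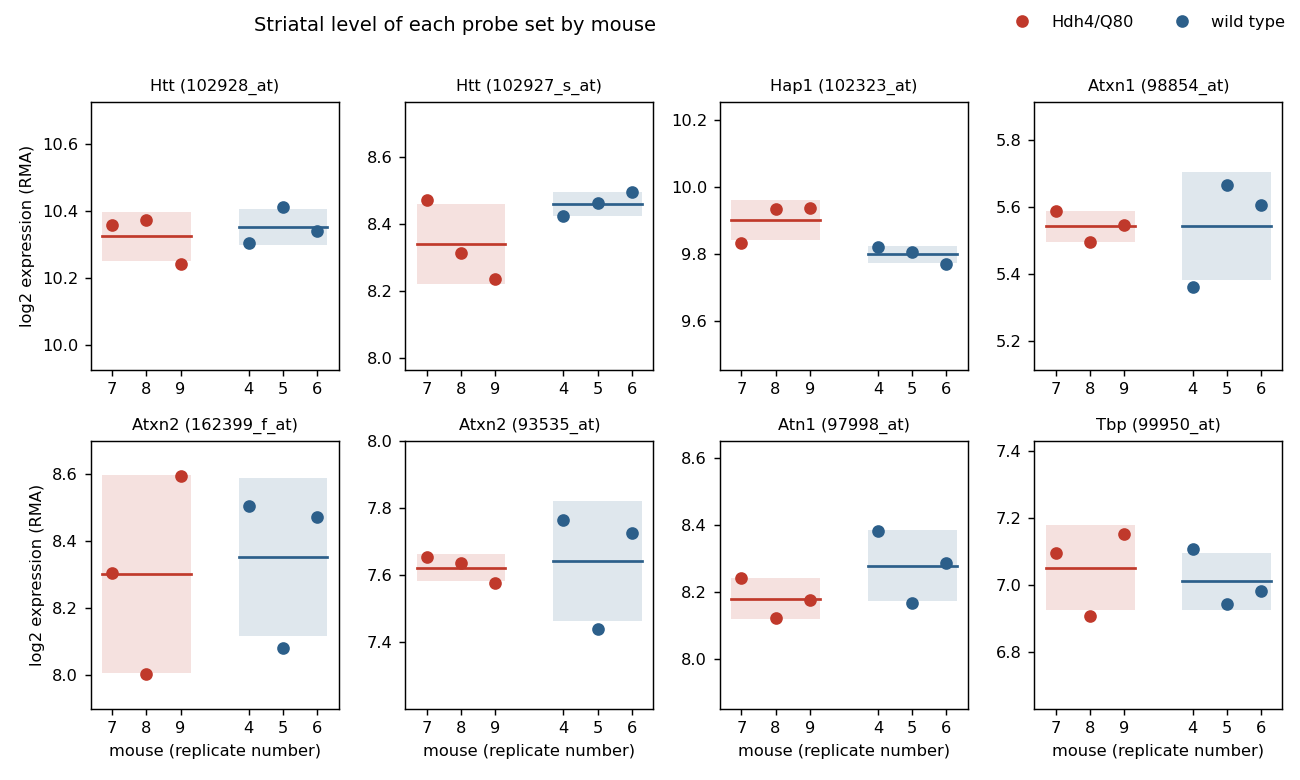
Log2 RMA expression (vertical axis, the same span in every panel) of each member probe set in the 3 Hdh4/Q80 mice (red, left) and the 3 wild-type mice (blue, right); lines are group means and shaded bands 1 SD either side. The groups overlap in every panel but that of Hap1, where the lowest mutant value of 9.83 lies just above the highest wild-type value of 9.82.

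Htt itself differed little between the groups on its brighter probe set and somewhat more, without passing the test, on the dimmer one. The brighter probe set, 102928_at, read 10.36, 10.37 and 10.24 in Hdh4/Q80 replicates 7, 8 and 9, against 10.30, 10.41 and 10.34 in wild-type replicates 4, 5 and 6. Mutant replicate 9 was the lowest of the 6 mice and wild-type replicate 5 the highest, and the groups overlapped. The means were 10.32 ± 0.0728 in Hdh4/Q80 and 10.35 ± 0.0547 in wild type (SD, n = 3 mice each), differing by -0.03 ± 0.0716 (SE; 95% interval -0.19 to 0.13; limma adjusted p = 0.953). That interval runs from 12.2% less to 9.59% more Htt signal in the mutants. Its sign was not stable: with quantile normalization repeated the difference was 0.013 and with cyclic loess 0.025. The spread between mice was low, with a pooled SD of 0.0644 among the smallest 20.4% on the arrays.

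The other Htt probe set, 102927_s_at, read 8.47, 8.31 and 8.24 in Hdh4/Q80 replicates 7, 8 and 9, against 8.42, 8.46 and 8.49 in wild-type replicates 4, 5 and 6. Mutant replicates 8 and 9 lay below all 3 wild types, while mutant replicate 7 was second only to wild-type replicate 6. The means were 8.34 ± 0.12 in Hdh4/Q80 and 8.46 ± 0.036 in wild type (SD, n = 3 each), differing by -0.12 ± 0.0782 (SE; 95% interval -0.30 to 0.05; limma adjusted p = 0.857). By an exact two-sided permutation test over the 20 ways to choose 3 of 6 mice, which cannot give less than 0.1 here, p was 0.3, and for the brighter probe set 0.7. Without mutant replicate 7 the difference was -0.19 (limma unadjusted p = 0.0459, adjusted p = 0.589), and without mutant replicate 9 it was -0.068. Array weights, which limma estimates from how far the same values lie from the group fit, brought the difference to -0.019. They gave replicate 7 a weight of 6.18 against 0.228 and 0.405 for replicates 8 and 9, so the weighted mutant mean rested mostly on replicate 7. The _s_at suffix marks a probe set that can bind more than 1 transcript, and no source used here places either probe set on the transcript. Genotype is therefore not checked by these values, which cannot separate mutant from normal transcripts.

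Across the 6 mice, the Htt probe sets gave a Pearson correlation of 0.610 (exact permutation p = 0.210, adjusted 0.326 over the 2 genes with a pair of probe sets) and a Spearman correlation of 0.314 (exact permutation p = 0.564, adjusted 0.564). Without the 2 mice farthest from the median of the brighter probe set, mutant replicate 9 and wild-type replicate 5, Pearson's r was -0.374. The mean of both probe sets gave a difference of -0.07 (limma adjusted p = 0.871 over genes).

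The brighter Htt probe set was set against every probe set with 1 gene symbol. The 5 other genes most like it over the 6 arrays were St3gal4, a sialyltransferase (r = 0.995), Pld2, a phospholipase D (r = 0.995), Pigyl (r = 0.991), Ccl4, a chemokine (r = 0.986), and Epha3, an ephrin receptor (r = 0.984). Pigyl (means 5.40 in Hdh4/Q80 and 5.45 in wild type) and Epha3 (5.39 and 5.43) were dim, below every array's lower quartile (5.79 to 5.86). All 5 had their lowest value in mutant replicate 9 and their highest in wild-type replicate 5, as Htt did. They were picked as the highest of 10833 probe sets, 195 of which (1.80%) had r over 0.9, so the correlations are given without a test. Among the other members r with this probe set was 0.459 for Atxn1, -0.280 for Atn1, -0.406 for Hap1 and -0.807 for Tbp, and -0.861 and -0.364 for the Atxn2 probe sets, again over 6 mice that share arrays and normalization.

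Promoters of Htt and Hap1 are printed because Htt is the gene altered in these mice and Hap1 the only member whose groups did not overlap. Each is the RefSeq window from 250 bases before to 50 after an annotated transcript start on mouse GRCm38.p6. The Htt window is chr5:34761490-34761789 on the plus strand and the Hap1 window, one of a pair of overlapping windows, chr11:100356092-100356391 on the minus strand. Capitals mark GC boxes (GGGCGG or CCGCCC), the cAMP response element (TGACGTCA) and the TATA motif (TATAAA or TTTATA), searched on both strands.
Htt: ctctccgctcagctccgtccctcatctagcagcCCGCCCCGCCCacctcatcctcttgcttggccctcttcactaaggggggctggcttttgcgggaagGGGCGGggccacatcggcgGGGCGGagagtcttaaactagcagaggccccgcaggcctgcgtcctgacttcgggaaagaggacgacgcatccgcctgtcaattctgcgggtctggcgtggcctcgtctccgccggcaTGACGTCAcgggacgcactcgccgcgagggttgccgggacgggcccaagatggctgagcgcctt
Hap1: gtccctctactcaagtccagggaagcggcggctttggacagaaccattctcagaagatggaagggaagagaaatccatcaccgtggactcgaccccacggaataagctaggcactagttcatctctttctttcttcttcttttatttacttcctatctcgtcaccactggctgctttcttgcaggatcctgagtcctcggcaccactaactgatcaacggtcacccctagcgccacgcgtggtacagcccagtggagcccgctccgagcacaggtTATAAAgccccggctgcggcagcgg
The Htt window had 67.3% G and C, 29 CpG dinucleotides, 4 GC boxes, of which a pair shares 1 base, and 1 cAMP response element. It held no TATA motif and no CAGCAG, so the disease repeat is not in it. The Hap1 window had 54.7% G and C, 16 CpG dinucleotides, 0 GC boxes and 1 TATA motif, which starts at base 26 after the annotated start and so lies downstream of it. Of 32851 windows of this length 35.7% held a GC box, 1.79% the cAMP response element and 13.6% the TATA motif, and their median G and C content was 52.7%. A match is a run of letters and was not tested for binding. Windows were matched for 5 of the 7 genes, Htt, Hap1, Hip1, Atxn2 and Tbp.

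Hap1 was the only member whose groups did not overlap, and its difference did not pass the test. It encodes huntingtin-associated protein 1, a neuronal protein that joins huntingtin to dynactin and kinesin and is abundant in the hypothalamus and limbic forebrain. Its probe set, 102323_at, read 9.83, 9.93 and 9.94 in Hdh4/Q80 replicates 7, 8 and 9, against 9.82, 9.80 and 9.77 in wild-type replicates 4, 5 and 6. All 3 mutants lay above all 3 wild types, but replicate 7 did so by 0.011 only, and 6.67% of all probe sets were separated in this direction. The means were 9.90 ± 0.0597 in Hdh4/Q80 and 9.80 ± 0.0256 in wild type (SD, n = 3 each), differing by 0.10 ± 0.0676 (SE; 95% interval -0.05 to 0.25; limma adjusted p = 0.857; exact permutation p = 0.1, the smallest this design allows). On the linear scale the estimate is 1.07-fold and the interval runs from 3.38% less to 19.1% more. The difference was above 0 with each mouse left out (0.083 to 0.14) and in every other setting tried (0.049 with array weights to 0.15 with quantile normalization repeated). Its pooled SD of 0.0459 was among the smallest 7.90% on the arrays.

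**Figure D2:**
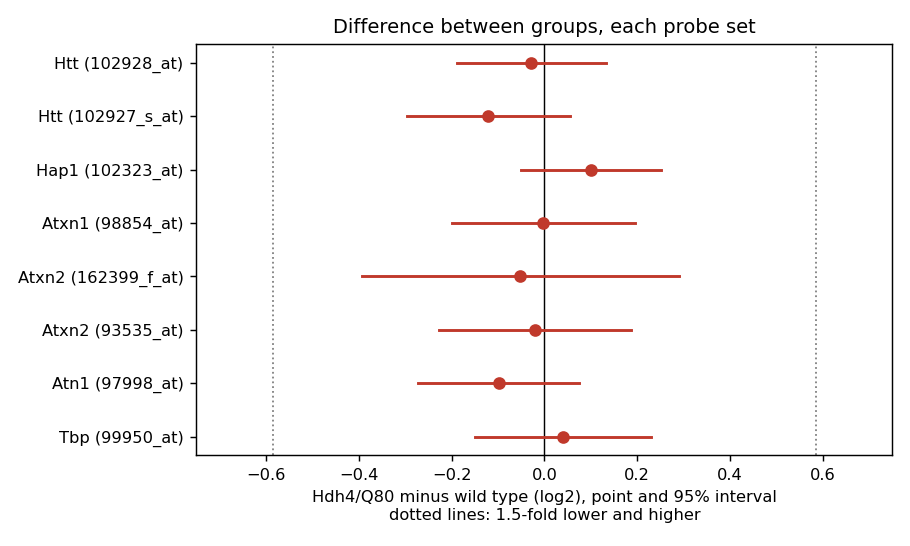
Difference of group means (Hdh4/Q80 minus wild type, log2) with its 95% interval from limma for each member probe set; dotted lines mark 1.5-fold lower and higher. All 8 intervals cross 0 and none reaches a dotted line; the widest, from -0.39 to 0.29, is that of the Atxn2 probe set 162399_f_at.

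The ataxins showed no difference beyond their spread. Atxn1 encodes ataxin 1, a nuclear protein that works with the repressor Capicua and whose expansion causes a spinocerebellar ataxia. Its probe set, 98854_at, read 5.59, 5.49 and 5.54 in Hdh4/Q80 replicates 7, 8 and 9, against 5.36, 5.67 and 5.60 in wild-type replicates 4, 5 and 6. The mutants sat inside the wild-type range, and wild-type replicate 4 was the lowest mouse. The means were 5.54 ± 0.0462 in Hdh4/Q80 and 5.54 ± 0.161 in wild type (SD, n = 3 each), differing by -0.0018 (95% interval -0.20 to 0.20; limma adjusted p = 0.996). Every array's lower quartile (5.79 to 5.86) was above both means, and since RMA shrinks the fold changes of dim probe sets, this interval is a weak limit.

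Atxn2 encodes ataxin 2, an RNA-binding protein that associates with poly(A)-binding protein and stress granules. Its brighter probe set, 162399_f_at, read 8.30, 8.00 and 8.59 in Hdh4/Q80 replicates 7, 8 and 9, against 8.50, 8.08 and 8.47 in wild-type replicates 4, 5 and 6. Mutant replicates 9 and 8 were the highest and the lowest of the 6 mice, so the mutants spanned the wild types. This was the most variable member: its range over the 6 mice was 0.59, its pooled SD of 0.267 exceeded that of 98.6% of probe sets, and the group difference was -0.05 ± 0.153 (SE; 95% interval -0.39 to 0.29, limma adjusted p = 0.958). The _f_at suffix marks a probe set that can bind related transcripts.

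The dimmer Atxn2 probe set, 93535_at, read 7.65, 7.64 and 7.58 in Hdh4/Q80 replicates 7, 8 and 9, against 7.76, 7.44 and 7.73 in wild-type replicates 4, 5 and 6. Here the mutants lay between the wild types, with an SD of 0.0397 in Hdh4/Q80 and 0.179 in wild type. The difference was -0.02 ± 0.0924 (SE; 95% interval -0.23 to 0.19, limma adjusted p = 0.974). Both Atxn2 probe sets had their lowest wild-type value in replicate 5, whereas the mutant extremes differed. Over the 6 mice they gave a Pearson correlation of 0.487 (exact permutation p = 0.326, adjusted 0.326) and a Spearman correlation of 0.314 (exact permutation p = 0.564, adjusted 0.564). Without mutant replicate 8 and wild-type replicate 5, the 2 mice farthest from the median, r was -0.177.

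Atn1, the atrophin 1 gene, encodes a transcriptional corepressor. Its probe set, 97998_at, read 8.24, 8.12 and 8.18 in Hdh4/Q80 replicates 7, 8 and 9, against 8.38, 8.17 and 8.29 in wild-type replicates 4, 5 and 6. The groups overlapped through wild-type replicate 5, which lay below mutant replicates 7 and 9. The means were 8.18 ± 0.0606 in Hdh4/Q80 and 8.28 ± 0.107 in wild type (SD, n = 3 each), differing by -0.10 ± 0.0777 (SE; 95% interval -0.27 to 0.07; limma adjusted p = 0.858; exact permutation p = 0.3). Leaving out 1 mouse moved it between -0.15, without wild-type replicate 5, and -0.048, without wild-type replicate 4, always below 0.

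Tbp encodes the TATA-binding protein, the core of the general transcription factor TFIID, and is often used as a reference transcript. Its probe set, 99950_at, read 7.095, 6.91 and 7.15 in Hdh4/Q80 replicates 7, 8 and 9, against 7.11, 6.94 and 6.98 in wild-type replicates 4, 5 and 6. Mutant replicates 9 and 8 were the highest and lowest of the 6 mice. The means were 7.05 ± 0.128 in Hdh4/Q80 and 7.01 ± 0.0855 in wild type (SD, n = 3 each), differing by 0.04 ± 0.085 (SE; 95% interval -0.15 to 0.23; limma adjusted p = 0.947; exact permutation p = 0.8).

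**Figure D3:**
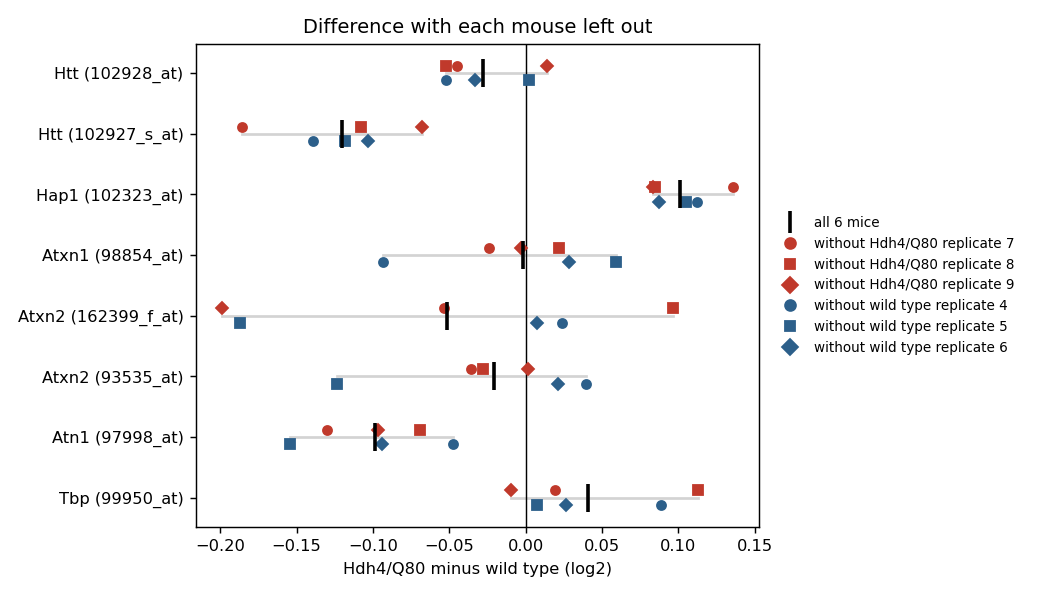
Difference (Hdh4/Q80 minus wild type, log2) of each member probe set with all 6 mice (black bar) and with 1 mouse left out (red, a Hdh4/Q80 mouse; blue, a wild-type mouse). Only 102927_s_at of Htt, Hap1 and Atn1 keep 1 sign in all 6 refits, and 162399_f_at of Atxn2 moves most, from -0.20 without Hdh4/Q80 replicate 9 to 0.097 without replicate 8.

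Genes that act with the members were taken from lists of known partners and enzymes, 68 genes in all, of which 45 were measured by 56 probe sets. None passed the test (0 of 56 in limma at an adjusted p under 0.05; 1 of 56 at an unadjusted p under 0.05, against 5.1% of all probe sets). Groups did not overlap for 7 of 56, against 11.7% of all probe sets. Of the 56, 6 were separated lower in Hdh4/Q80 mice, against 5.05% of all probe sets, and 1 higher, against 6.67%. Differences leaned below 0: 42 of the 56, with a median of -0.07, against 51.1% of all probe sets and a median of -0.0027.

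The count moved with 1 mouse. Without Hdh4/Q80 replicate 8 it was 29 of 56 (median -0.0015), against 48.0% of all probe sets. With any other mouse left out it was 38 to 45, against 50.4% to 52.7% of all probe sets. It was 37 of 56 with quantile normalization repeated (median -0.05) and 38 of 56 with cyclic loess (median -0.04) or array weights (median -0.02). By level on the arrays, 9 of 12 were below 0 in the dimmest 40%, 11 of 13 in the middle 40% and 22 of 31 in the brightest 20%. In bands of 20% from the dimmest to the brightest, the share below 0 over all probe sets was 39.0%, 42.4%, 50.9%, 56.3% and 67.0% with all mice. In the brightest band it was 50.7% without Hdh4/Q80 replicate 8. There it was 51.9% with quantile normalization repeated, 49.7% with cyclic loess and 60.6% with array weights. The count of the 8 members below 0, 6 with all mice, was 3 without wild-type replicate 6, 4 under array weighting or without wild-type replicate 4, wild-type replicate 5 or Hdh4/Q80 replicate 8, and 5 with quantile normalization repeated, with cyclic loess or without Hdh4/Q80 replicate 9.

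Of the other polyglutamine disease genes, Cacna1a was measured, and Atxn3 and Atxn7 had no probe set under the rule. Cacna1a encodes the pore subunit of the P/Q-type calcium channel, which triggers transmitter release. Its probe set, 92445_at, read 7.42, 6.999 and 7.01 in Hdh4/Q80 replicates 7, 8 and 9, against 7.33, 7.41 and 7.51 in wild-type replicates 4, 5 and 6. Mutant replicates 8 and 9 lay below all wild types and replicate 7 among them. The difference of -0.27 ± 0.114 (SE) had a 95% interval of -0.52 to -0.02 (limma unadjusted p = 0.0394, adjusted p = 0.857; exact permutation p = 0.3). Leaving out 1 mouse gave -0.41, without mutant replicate 7, to -0.20, without mutant replicate 8, and array weights gave -0.055. The pattern of 2 low mutants beside a wild-type-like replicate 7 was also that of the Htt probe set 102927_s_at and of Capn2 101040_at. How many of all probe sets share it was not counted.

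Of 24 listed huntingtin partners 13 were measured by 14 probe sets, 11 of them below 0 (median -0.06). F8a, whose product HAP40 forms a stable complex with huntingtin, read 6.57, 6.30 and 6.59 in Hdh4/Q80 replicates 7, 8 and 9, against 6.66, 6.62 and 6.76 in wild-type replicates 4, 5 and 6. The groups did not overlap, and the difference was -0.19 ± 0.0906 (SE; limma adjusted p = 0.857; -0.10 without mutant replicate 8). The transcription factor gene Sp1 (-0.14 ± 0.0751; -0.086 without mutant replicate 8) and Arfip2, the arfaptin 2 gene (-0.08 ± 0.0667), were the other partners whose groups did not overlap. Pacsin1, a neuronal endocytic adaptor that binds huntingtin, differed by -0.13 ± 0.0903, and by -0.046 without mutant replicate 8. On the positive side were Rest, the repressor of neuronal genes that huntingtin holds in the cytoplasm (0.15 ± 0.123; -0.00052 without mutant replicate 8), Tgm2, a transglutaminase (0.04 ± 0.0668; 0.019 without wild-type replicate 5, 0.065 without wild-type replicate 4), and Hip1r, the relative of Hip1 (0.0070 ± 0.0842).

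Partners of Hap1 and Hip1 had 10 of 11 probe sets below 0 (9 of 11 genes measured, median -0.09). Ahi1, whose product forms a complex with Hap1, read 8.82, 8.84 and 8.82 in Hdh4/Q80 replicates 7, 8 and 9, against 8.91, 8.89 and 8.92 in wild-type replicates 4, 5 and 6. Its pooled SD of 0.0123 was among the smallest 0.081% on the arrays, where that of Hap1 was among the smallest 7.90%. The gap between the groups, 0.055, was wider than that of Hap1, and the difference ran opposite to it at -0.08 ± 0.0635 (SE; limma adjusted p = 0.858; -0.090 to -0.076 with 1 mouse left out). Kalrn, an exchange factor first found as a Hap1 partner, did not overlap on its dimmer probe set (-0.16 ± 0.0859; -0.070 without mutant replicate 8, -0.038 with array weights) and did on the brighter one (-0.12 ± 0.16; -0.29 without wild-type replicate 5, -0.0048 without wild-type replicate 4). Dctn1, the dynactin subunit that binds Hap1, differed by -0.17 ± 0.111, and by -0.036 without mutant replicate 8. Hgs, an endosomal sorting protein, had the only positive difference (0.06 ± 0.0767; -0.0025 without mutant replicate 8).

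Kinases, phosphatases and proteases that act on huntingtin had 6 of 10 probe sets above 0 (8 of 9 genes, median 0.03). Casp2, a caspase reported to cleave huntingtin, read 7.18, 7.28 and 7.19 in Hdh4/Q80 replicates 7, 8 and 9, against 7.05, 7.14 and 7.05 in wild-type replicates 4, 5 and 6 on the probe set 161263_f_at. All mutants lay above all wild types there (0.13 ± 0.0696, SE; limma adjusted p = 0.857). The other Casp2 probe set differed by 0.07 ± 0.0714 with overlapping groups (0.047 without mutant replicate 9, 0.11 without mutant replicate 8). The calpain gene Capn2 differed by -0.20 ± 0.0889 on the probe set 101040_at. On the dim 162112_i_at it differed by 0.13 ± 0.124, which was 0.0086 without wild-type replicate 6 and 0.28 without wild-type replicate 5. The kinase genes Sgk1 and Cdk5 differed by -0.15 ± 0.184 and -0.04 ± 0.105, and both changed sign with 1 mouse left out (Sgk1 0.019 without wild-type replicate 6, Cdk5 0.077 without mutant replicate 8).

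Partners of the ataxins and of atrophin 1 had 11 of 14 probe sets below 0 (8 of 9 genes, median -0.06). Anp32a, whose product LANP binds ataxin 1, did not overlap on the probe set 93372_at (-0.19 ± 0.0892; -0.11 without mutant replicate 8), while its brighter one gave 0.0067 ± 0.0676. Vcp, the segregase that binds ataxin 3, differed by -0.11 ± 0.0737 on its brightest probe set (-0.074 without mutant replicate 8) and by -0.14 ± 0.0775 on a dimmer one (-0.088 without wild-type replicate 4). Cic, the Capicua gene, and the atrophin 1 partner Baiap2 on its probe set 103098_at had positive differences of 0.07 ± 0.0773 (0.011 without mutant replicate 9) and 0.0023 ± 0.0661. The dimmer Baiap2 probe set, 99337_at, differed by -0.07 ± 0.126 (0.077 without wild-type replicate 4). Tbp partners had 5 of 6 probe sets below 0 (6 of 11 genes, median -0.09), with 0 of 6 groups separated. Taf10, a TFIID subunit, differed by -0.13 ± 0.112 (-0.030 without wild-type replicate 4) and Drap1 by -0.12 ± 0.111 (0.011 without mutant replicate 8). Gtf2b, the gene of TFIIB, differed by -0.08 ± 0.0747 (-0.020 without mutant replicate 8) and Dr1 by 0.02 ± 0.0739. For every gene of these lists limma's adjusted p was at least 0.857.

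**Figure D4:**
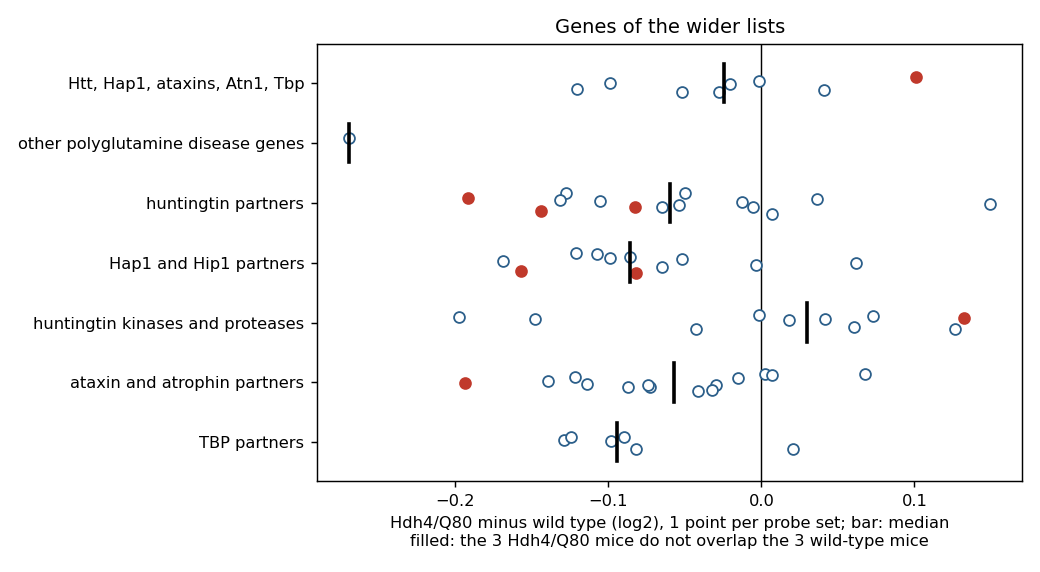
Difference (Hdh4/Q80 minus wild type, log2) of each probe set of Htt, Hap1, the ataxins, Atn1 and Tbp (top row) and of 6 lists of related genes; black bars are medians and filled points are probe sets whose groups do not overlap. Most points of the partner lists lie left of 0 (42 of 56 over the 6 lists), within 0.27 of it on either side.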

How the data were processed

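The authors deposited log2 values, 1 for each probe set and array. RMA and affy are named in the submitters' processing notes, which give no versions and do not say which arrays were normalized together. This method subtracts background, equalises arrays by quantiles and summarises probes, so global changes are removed and fold changes shrunk. Of 12488 probe sets, 66 controls were left out; values of the rest ran from 2.57 to 13.42. A platform annotation gave 10833 probe sets 1 gene symbol, 396 several and 1193 none. Groups and replicate numbers came from the sample titles, and the number of arrays limits precision.

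Hdh4/Q80 minus wild type was fitted with limma 3.58.1 in R 4.3.3 (lmFit, eBayes; residual df 4, prior df 5.81). P-values were Benjamini-Hochberg adjusted over 12422 probe sets, and the fit was tested on simulated data. Single values also had exact two-sided permutation tests. Alternatives were each mouse left out, array weights, gene means, eBayes with trend and robust options, a filter on the dimmest 40%, and 3 scalings (median centring, quantiles again, cyclic loess). Members and lists were chosen with earlier results of these data known. Named genes were all member probe sets, Cacna1a, up to 3 probe sets of smallest p per direction and list, those with separated groups, and the 5 genes most correlated with Htt.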

Additional observations from a re-analysis of the deposited data

How the results depend on the processing

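No paired analysis was possible because the groups share no replicate numbers. No probe set passed an adjusted p of 0.05 in limma under any of the 12 settings run over all probe sets, and 0 member probe sets did. Of 99 member values under an alternative, 83 kept their sign and 16 did not. The 83 include values that could not turn, because the filter and the trended and robust moderation leave the difference itself unchanged. Median centring hardly moved it (Atxn1 from -0.0018 to -0.0019). The gene mean was counted once for each probe set of Htt and of Atxn2. Besides the Htt probe set 102928_at (0.013 with quantile normalization repeated, 0.025 with cyclic loess), array weights turned Atxn1 (0.010), Atxn2 93535_at (0.00066), Hip1r (-0.0041) and Cdk5 (0.042). With 1 mouse left out the values ran from -0.052 to 0.014 for Htt 102928_at, -0.19 to -0.068 for Htt 102927_s_at, -0.093 to 0.059 for Atxn1, -0.20 to 0.097 and -0.12 to 0.040 for Atxn2 162399_f_at and 93535_at, and -0.0097 to 0.11 for Tbp. Of the related probe sets picked by the naming rule, those that changed sign ran from -0.00052 to 0.26 (Rest), -0.0025 to 0.11 (Hgs), -0.072 to 0.078 (Hip1r), -0.013 to 0.040 (Anp32a 104390_at), -0.015 to 0.025 (Baiap2 103098_at), -0.020 to 0.061 (Dr1), -0.20 to 0.011 (Drap1), -0.41 to 0.019 (Sgk1) and -0.12 to 0.077 (Cdk5). Others of the 56 changed sign too, among them Grb2 (-0.11 to 0.046), Crebbp (-0.11 to 0.083), Gtf2a1 (-0.24 to 0.095) and Baiap2 99337_at (-0.16 to 0.077). The cause was not tested. The 634 probe sets at an unadjusted p under 0.05 became 338 of the 7453 left without the dimmest 40%, 1812 with array weights, and 251 (without wild-type replicate 6) to 1153 (without Hdh4/Q80 replicate 9) with 1 mouse left out, 1049 without Hdh4/Q80 replicate 7 and 406 without wild-type replicate 5 among them. Of the 56 probe sets of related genes, 1 became 2 with median centring, cyclic loess, trended and robust moderation or array weights, 3 with quantile normalization repeated, and 0 (without Hdh4/Q80 replicate 8) to 4 (without replicate 7 or 9) with 1 mouse left out. The dimmest 40% held Atxn1, which has no value without them.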
